A study of Mus musculus with 3 samples.

Results

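Immature neutrophils with granule genes were neutrophil barcodes of mouse blood that still carried mRNA for the proteins of the specific granules. They were chosen from raw UMIs (unique molecular identifiers, 1 per captured mRNA molecule) in 1 droplet barcode, read as 1 cell. A member had 500 or more UMIs, 250 or more genes and at most 10% mitochondrial UMIs, with 10 or more UMIs of Ngp, Camp and Ltf together, 10 or more of S100a8 and S100a9 together, and at most 1 of Cd3d, Cd3e and Cd3g together. Of 31064 barcodes that passed the first 3 limits in the series, 120 were members. The aged+AA library held 15, the aged library 100 and the young library 5, so 83.3% of the members came from 1 library. Mature neutrophils, with 9 or fewer granule UMIs and at least 4 of S100a8, S100a9, Csf3r, Cxcr2, Mmp9, Il1r2 and Hdc detected, numbered 202, 1011 and 11 in the same order and were the cells most like the members.

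The study measured single-cell mRNA in peripheral blood mononuclear cells of C57BL/6 mice with a droplet kit that reads the 3' end of transcripts. The aged+AA library came from aged mice that had received AA for 1 month (ascorbic acid, vitamin C, according to the title, where Myh9, CD8+ T cells and cognition are also mentioned). The aged library came from aged mice given PBS for 1 month, and the young library from young mice given PBS for 1 month. The title calls the mice middle-aged, and the labels give neither an age nor the number of mice behind a library. Each group was 1 library, so a difference between libraries has no replicate check, and the group, the animals, the cell separation and the library preparation cannot be told apart. Cells were taken from the layer left on a lymphocyte separation medium, through which most neutrophils pass, so the neutrophils described are those that stayed at that layer. Intervals below are exact 95% intervals (Poisson for levels, Clopper-Pearson for shares) and cover counting error only.

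Neutrophils fill their granules in order while they mature in the bone marrow. Primary granules with myeloperoxidase and elastase come first, specific granules with lactoferrin, cathelicidin and lipocalin-2 follow under the transcription factor C/EBP epsilon, and gelatinase granules and secretory vesicles come last. The mRNA of a granule class fades when its stage is over, while receptors and inflammatory genes such as Csf3r, Cxcr2 and Il1b mark mature neutrophils. Blood at rest holds mostly mature neutrophils, and younger forms are released when demand is high.

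The members carried the markers given for this cell type. Ngp (neutrophilic granule protein), Camp (cathelicidin) and Ltf (lactoferrin) chose the cells, so their levels are no finding. The other 2 markers were not used. Lcn2 (lipocalin-2, which binds iron-carrying siderophores) was detected in all 120 members, with 42 to 208 UMIs per cell in the aged+AA library (median 86), 3 to 318 in the aged library (median 101.5) and 71 to 174 in the young library (median 84). Mature neutrophils had median Lcn2 counts of 2, 1 and 1 UMIs. Cd177, a surface protein of neutrophils, was detected in 14 of 15 aged+AA members, 96 of 100 aged members and 5 of 5 young members. In all members, 0 UMIs were found for the primary granule genes Mpo, Elane, Ctsg and Bpi. A limit of 3 counts stands for 26.25 CPM (a gene's UMIs per 1000000 UMIs of the summed cells) in the aged+AA members and 3.728 CPM in the aged members. Of 9 progenitor genes, 1, 5 and 1 were detected in aged+AA, aged and young members, with 8.749, 18.64 and 25.32 CPM summed over the list, and 3 of 100 aged members had 2 or more UMIs of them. Cd34, Meis1, Mecom and Sox4 were at 0 in all members. The defining markers of the label were thus present.

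The promoters of the 5 marker genes are shown because these genes define the cells, and the factors C/EBP and PU.1 are known to drive granulocyte genes. The 250 bases before the start of each gene are given 5' to 3' on the gene's strand, from RefSeq on GRCm38.p6 (the mm10 assembly). Capitals mark the C/EBP motif TTGCNNAA (TTNNGCAA on the other strand) and the PU.1 motif GAGGAA, which reads TTCCTC on the other strand. Both strands were searched. The windows are chr9:110419558-110419807 (plus strand) for Ngp, chr9:109849457-109849706 (minus) for Camp, chr9:111019042-111019291 (plus) for Ltf, chr2:32387740-32387989 (minus) for Lcn2 and chr7:24760312-24760561 (minus) for Cd177.
Ngp: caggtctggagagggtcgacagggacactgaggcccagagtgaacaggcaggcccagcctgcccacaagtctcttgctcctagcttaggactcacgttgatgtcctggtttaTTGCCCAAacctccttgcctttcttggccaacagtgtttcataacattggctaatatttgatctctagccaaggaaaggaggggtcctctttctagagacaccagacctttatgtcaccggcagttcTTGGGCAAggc
Camp: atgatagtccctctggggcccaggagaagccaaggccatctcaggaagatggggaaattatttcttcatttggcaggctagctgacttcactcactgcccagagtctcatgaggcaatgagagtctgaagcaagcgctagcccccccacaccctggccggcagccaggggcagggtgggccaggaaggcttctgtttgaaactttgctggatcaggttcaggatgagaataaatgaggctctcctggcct
Ltf: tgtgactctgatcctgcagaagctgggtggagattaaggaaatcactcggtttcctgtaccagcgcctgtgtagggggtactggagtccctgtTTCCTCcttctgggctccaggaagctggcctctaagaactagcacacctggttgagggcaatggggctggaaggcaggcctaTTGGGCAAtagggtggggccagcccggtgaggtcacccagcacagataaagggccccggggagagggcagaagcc
Lcn2: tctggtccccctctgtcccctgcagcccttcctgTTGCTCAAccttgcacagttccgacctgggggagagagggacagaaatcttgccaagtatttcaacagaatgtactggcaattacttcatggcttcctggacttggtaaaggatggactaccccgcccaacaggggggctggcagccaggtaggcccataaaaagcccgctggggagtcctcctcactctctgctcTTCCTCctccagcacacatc
Cd177: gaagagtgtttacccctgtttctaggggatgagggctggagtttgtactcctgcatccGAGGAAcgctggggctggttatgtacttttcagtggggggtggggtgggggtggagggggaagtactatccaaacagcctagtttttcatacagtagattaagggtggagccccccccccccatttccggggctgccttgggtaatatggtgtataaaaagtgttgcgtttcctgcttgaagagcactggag

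The Ngp window holds 2 C/EBP matches, 138 and 11 bases before the start. The Ltf window holds a PU.1 match at 157 bases and a C/EBP match at 75 bases, and the Lcn2 window a C/EBP match at 216 bases and a PU.1 match at 20 bases. The Cd177 window holds a PU.1 match at 192 bases, and neither string of letters is in the Camp window. Among all 32851 promoter windows of the same length in the table, 9.56% hold the C/EBP motif, 23.25% the PU.1 motif and 2.07% both. Of 19 windows of the 18 specific granule genes found in the table, the rule genes included, 5 hold the C/EBP motif, 10 the PU.1 motif and 4 both. Among 25 windows of mature neutrophil genes, 4 hold the C/EBP motif, 11 the PU.1 motif and 1 both. A match describes the letters only and is no evidence that a factor binds there.

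Immature neutrophils were most frequent in the aged library and rare in the other libraries. They made up 0.128% of passing barcodes in the aged+AA library (15 of 11713, interval 0.0717 to 0.211%), 0.980% in the aged library (100 of 10204, 0.798 to 1.19%) and 0.0547% in the young library (5 of 9147, 0.0178 to 0.128%). The aged+AA share was 0.131 times the aged share (interval 0.0705 to 0.226). The aged share was 17.9 times the young share (7.43 to 56.4), a wide interval because it rests on 5 young cells. That ratio was 8.36 with a mitochondrial limit of 5%, 9.59 when every barcode was thinned to 1000 UMIs before the rule, and 28.0 without barcodes that carried monocyte markers, an alternative chosen after seeing the data. The interval of the aged+AA over young ratio, 2.34, ran across 1 (0.809 to 8.24).

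Mature neutrophils had the same order of libraries, at 1.73% (1.497 to 1.977%), 9.91% (9.34 to 10.5%) and 0.120% (0.0601 to 0.215%) of passing barcodes in the aged+AA, aged and young libraries. Among neutrophils alone, the immature share was 6.91% in the aged+AA library (15 of 217, 3.92 to 11.1%) and 9.0% in the aged library (100 of 1111, 7.38 to 10.8%), a ratio of 0.768 with an interval that includes 1 (0.414 to 1.33). In the young library 5 of 16 neutrophils were immature, or 31.25% (11.02 to 58.66%). The aged share among neutrophils was 0.288 times the young one (0.119 to 0.906). The upper bound of that ratio passed 1 with a granule minimum of 5 UMIs (1.022) and without monocyte-marker barcodes (1.199).

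**Figure D1:**
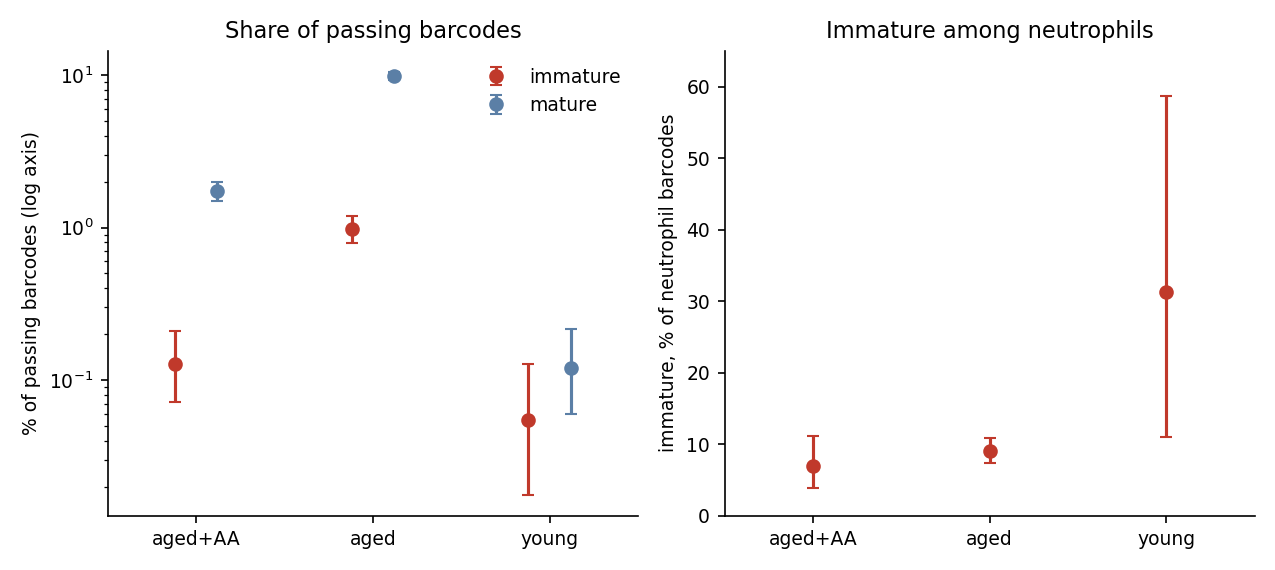
Shares of barcodes in the aged+AA, aged and young libraries, 1 library each, with exact 95% binomial intervals as bars. The left panel gives immature and mature neutrophils as a percentage of passing barcodes on a log axis, and both are highest in the aged library. The right panel gives immature neutrophils as a percentage of all neutrophil barcodes, 6.91%, 9.0% and 31.25%.

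The 3 libraries held 80424480, 94944551 and 64496639 UMIs (aged+AA, aged, young), and the median passing barcode had 4109, 3724 and 4548 UMIs, so the aged library, with the highest shares, had the lowest depth per barcode. Members had a median of 6638, 7107 and 7444 UMIs, against 2232, 2567 and 2595 UMIs in mature neutrophils. Free RNA, read from barcodes ranked 45001 to 90000 by UMIs, held 73.9, 387 and 79.6 CPM of the 3 granule genes. A barcode of the members' median depth made of free RNA alone would hold 0.490, 2.75 and 0.593 granule UMIs. Read from the median haemoglobin share, free RNA made up 1.19%, 1.49% and 0.814% of a member, so a member would take less than those values. B cells of the aged+AA, aged and young libraries were taken with fewer than 10 UMIs of S100a8 and S100a9 together. Of them 1.07%, 4.02% and 0.390% had any granule UMI, at median depths of 3572, 3171 and 3434 UMIs. None could have 10, because every passing barcode with 10 or more granule UMIs also had 10 or more of S100a8 and S100a9. No member barcode was shared between libraries as a member, and 1 aged member's barcode also passed in the aged+AA library. Scrublet called 0, 1 and 0 members doublets, against 15, 83 and 0 mature neutrophils.

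Some barcodes of both classes carried mRNA of other lineages. The removal used 10 monocyte genes, Csf1r, Ccr2, F13a1, Fn1 and Ms4a6c among them. It left out Nr4a1 and also Ly6c2, which granule-forming neutrophils express too. Barcodes with 2 or more UMIs of these genes numbered 2 of 15, 6 of 100 and 1 of 5 among aged+AA, aged and young members, against 21 of 202, 224 of 1011 and 3 of 11 among mature neutrophils. Over the whole monocyte list of 12 genes, with Ly6c2 and Nr4a1, the numbers were 12, 86 and 5 members, against 70, 470 and 7 mature neutrophils. Ly6c2 led that list in members, at 534, 622 and 1089 CPM. Nr4a1 led it in aged+AA and young mature neutrophils, at 312 and 490 CPM. Barcodes with 2 or more UMIs of the B cell genes Cd79a, Cd79b and Ms4a1 numbered 3, 11 and 0 among members, against 27, 83 and 0 among mature neutrophils. Without these and the doublets, 12, 85 and 4 members and 160, 727 and 8 mature neutrophils remained. Where leaving them out ended or turned a described difference, the values without them are given beside it. These removals were chosen after seeing the data, and the part of other lineages in the results was otherwise not tested. Erythroid mRNA was present in both classes, at 36841 and 55081 CPM summed over the marker list in the aged+AA and aged members and 71140 and 96376 CPM in their mature neutrophils, but at 760 CPM in the young members and 1521 CPM in young mature neutrophils.

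Few barcodes lay near the limit of 10 granule UMIs, and those were in the aged library. The granule UMIs per member had a median of 412 in the aged+AA library (23 to 760), 241 in the aged library (11 to 1461) and 637 in the young library (122 to 1169). Of the mature neutrophils, 198 of 202, 903 of 1011 and 11 of 11 had 0 granule UMIs. Just inside the limit, with 10 or 11 granule UMIs, stood 1 aged barcode, which had 38563 UMIs, the most of all members, 54 Lcn2 UMIs and 9.96% of its UMIs from S100a8 and S100a9. Just outside, with 8 or 9, stood 5 aged barcodes of 5057 to 13013 UMIs, with a median of 32 Lcn2 UMIs (27 to 72) and 19.2% from S100a8 and S100a9. Over wider ranges, 13 aged barcodes that met the other limits had 5 to 9 granule UMIs, 8 had 10 to 19 and 10 had 20 to 49. Granule counts of the aged library thus ran through the limit without a gap. The aged+AA and young libraries had no barcode of either class with 5 to 19 granule UMIs.

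**Figure D2:**
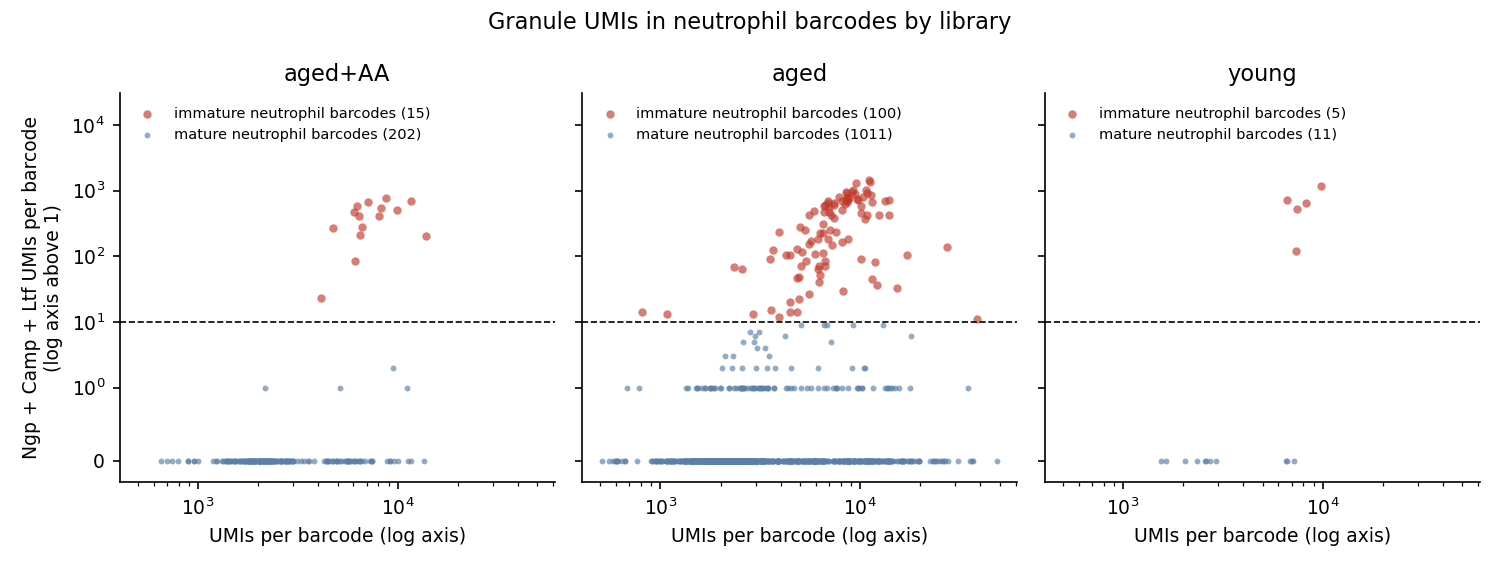
Each point is 1 neutrophil barcode in the aged+AA, aged or young library, with its UMIs on a log axis and its UMIs of Ngp, Camp and Ltf together on an axis that is logarithmic above 1. Immature neutrophils (red) lie above the dashed line at 10 and mature ones (blue) below it. Most members stand far above the line, and points close to it occur in the aged library.

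The next values set immature against mature neutrophils of the same library. The rule chose the cells by the granule genes, so every gene of this contrast is a description and supports nothing. S100a8 and S100a9, the calprotectin subunits, took 30.4%, 31.9% and 34.0% of member UMIs in the aged+AA, aged and young libraries, against 7.42%, 7.41% and 7.54% of mature UMIs, and this large share lowers the CPM of every other gene in the members. Of 8869 genes with 20 or more UMIs over both classes in the aged library, 337 (3.8%) were 2-fold or more higher in immature neutrophils and 3105 (35.0%) were 2-fold or more lower. The median gene stood at -0.68 on the log2 scale, and median-of-ratios scaling moved it to 0.05 with 1017 genes higher and 1216 lower, so 45.5% of the called genes were higher in place of 9.79%. In the aged+AA library 232 of 3804 genes (6.1%) were higher and 1250 (32.9%) lower, with a median of -0.52. List medians are therefore also given relative to the median of all genes.

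Specific granule genes other than the 3 of the rule stood high together. Of 17 measured in the aged library, 13 were 2-fold or more higher in immature neutrophils and none lower, with a median log2 ratio of 2.31, or 2.99 above the median gene. In the aged+AA library it was 13 of 16 and none lower, with a median of 2.84. Lcn2 had 12301, 13105 and 14455 CPM in the aged+AA, aged and young members, against 1074, 924 and 1134 CPM in mature neutrophils. Its ratio was 14.2 (13.7 to 14.7) in the aged library and 11.4 (10.4 to 12.6) in the aged+AA library. Cd177 had 919, 779 and 1291 CPM in members, against 26.8, 49.1 and 0 CPM in mature neutrophils, a ratio of 15.9 (13.6 to 18.5) in the aged library. Both genes were higher in members in each library.

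Itgb2l, an integrin beta subunit of mouse neutrophils, gave the largest ratio of the list. It had 271, 278 and 202 CPM in the aged+AA, aged and young members, against 0, 2.54 and 0 CPM in mature neutrophils, a ratio of 109.6 (61.5 to 215) in the aged library. Adpgk, an ADP-dependent glucokinase, had 892, 769 and 1013 CPM in members, against 20.5, 25.6 and 51.6 CPM in mature neutrophils, and its aged ratio was 30.1 (24.7 to 36.8). The collagenase gene Mmp8 had 2520, 1875 and 3392 CPM, against 436, 378 and 567 CPM in mature neutrophils, with an aged ratio of 4.95 (4.62 to 5.31). Among these genes the classes were furthest apart for those nearly absent from mature neutrophils. Wfdc21, a small secreted protein of the whey acidic family, had 6474, 6175 and 9797 CPM in members, against 731, 935 and 541 CPM in mature neutrophils. Anxa1, the annexin that limits neutrophil entry into tissue, had 2625, 2347 and 2532 CPM, against 450.5, 510.5 and 258 CPM in mature neutrophils. Ifitm6 had 2730, 2128 and 2177 CPM, against 72.5, 258 and 25.8 CPM, with ratios of 37.7 in the aged+AA library and 8.23 in the aged library. All of these were higher in members in each library.

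A few genes of the list did not differ between the classes in this way. Haptoglobin (Hp), with 1417, 1178 and 2025 CPM in members and 1317, 1104 and 1985 CPM in mature neutrophils, had an aged ratio of 1.07, and Lrg1 and Cyba had 1.42 and 1.20. Without other lineages aged Lrg1 was 595 CPM in members and 657 CPM in mature neutrophils, the opposite order, and aged Hp 1312 CPM in members and 1488 CPM in mature neutrophils. Lysozyme (Lyz2) had 6124, 7844 and 7012 CPM in members, against 1857, 7954 and 2114 CPM in mature neutrophils, so it was level in the aged library alone, at a ratio of 0.986. Without barcodes of other lineages, aged Lyz2 was 8237 CPM in members and 2773 CPM in mature neutrophils, and 14 of 17 specific granule genes were then 2-fold higher. Chil3, a chitinase-like protein, changed likewise, with 1951, 2013 and 4734 CPM in members, against 4.73, 599.6 and 0 CPM in mature neutrophils. Without other lineages, aged Chil3 was 2380 CPM in members and 25.7 CPM in mature neutrophils. Olfm4 (olfactomedin 4), known to mark a subset of neutrophils, was held by few cells. Its 23 UMIs in the aged+AA library were all in 1 member, a barcode with B cell or monocyte markers, its 102 UMIs in the aged library lay in 5 of 100 members, and the young members had 0.

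**Figure D3:**
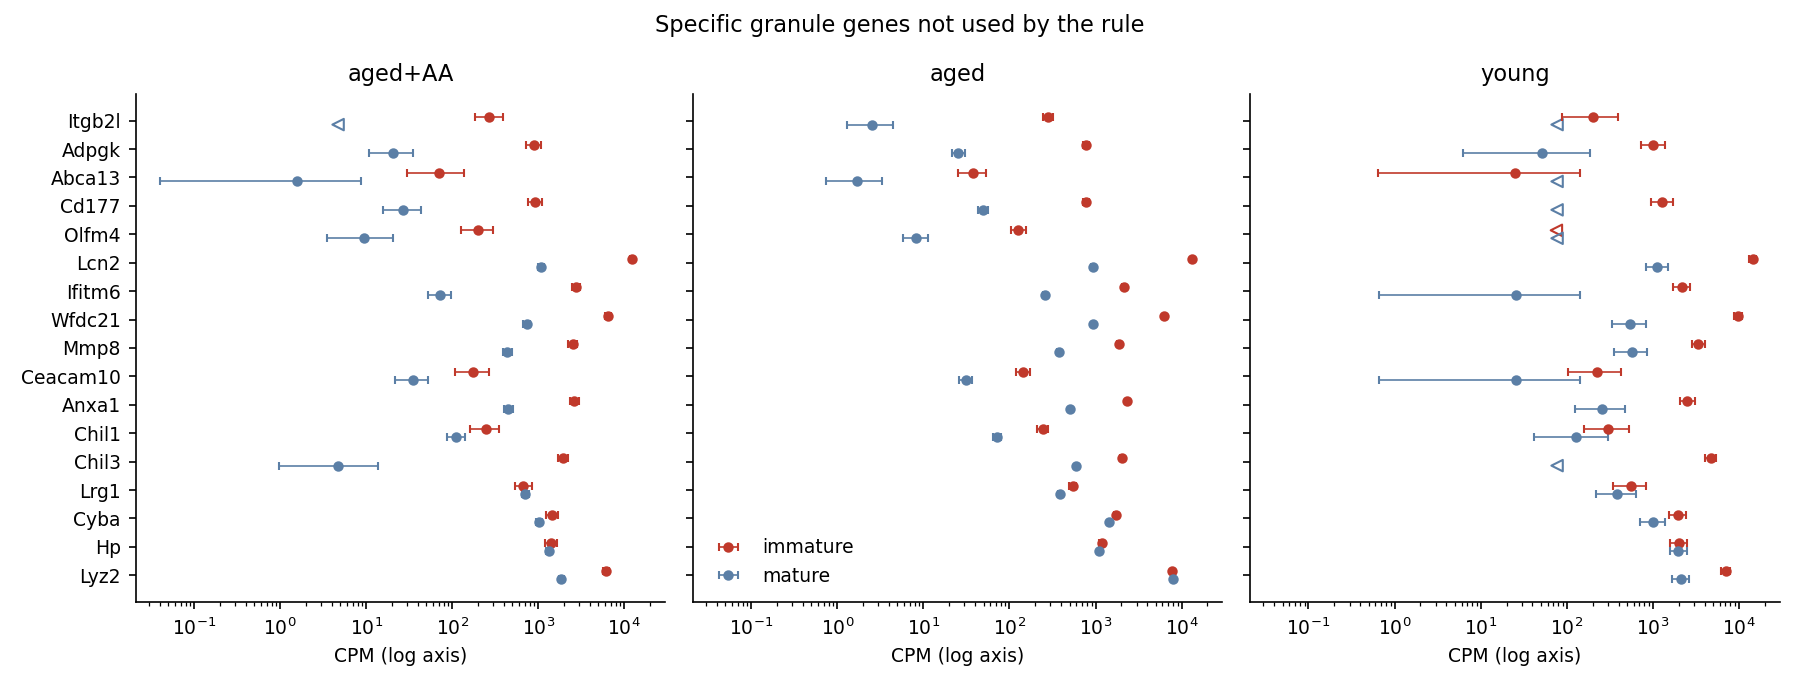
Levels of 17 specific granule genes that the rule did not use, in CPM on a log axis, for immature (red) and mature (blue) neutrophils of the aged+AA, aged and young libraries. Bars are exact 95% Poisson intervals of the summed counts, and open triangles are genes with 0 UMIs, drawn at the limit of 3 counts. Itgb2l, Adpgk and Cd177 are far apart between the classes, and Hp lies together.

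Primary granule genes were absent or nearly so. Besides the 4 genes at 0, proteinase 3 (Prtn3) had 0, 9 and 0 UMIs in aged+AA, aged and young members, in 3 aged cells, and it was at 0 in members without other lineages. Fcnb (ficolin B) had 0, 19 and 0 UMIs, of which 52.6% were in 1 aged cell. Serpinb1a, an inhibitor of the serine proteases of these granules, was the exception, with 516, 393 and 379.7 CPM in members, against 31.5, 26.9 and 25.8 CPM in mature neutrophils and an aged ratio of 14.6 (11.9 to 18.1). Srgn (serglycin, the proteoglycan core that packs granule proteins) ran the other way, with 604, 808 and 1443 CPM in members, against 5119, 3412 and 6110 CPM in mature neutrophils. Of the 5 genes of the list measured in the aged library, 2 were 2-fold higher and 3 lower, against 3.8% higher and 35.0% lower among all genes.

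Gelatinase granule and secretory vesicle genes divided between the classes. Of 14 measured in the aged library, 5 were 2-fold higher and 1 lower, with a median of -0.05, or 0.63 relative to the median gene, and the sign of that median turned with median-of-ratios scaling (0.67). Mmp25, a membrane-anchored metalloproteinase, had 201, 190.1 and 101 CPM in members, against 11.03, 23.3 and 51.6 CPM in mature neutrophils. Pglyrp1, a peptidoglycan-binding protein, had 2161, 2415 and 2683 CPM, against 754, 762 and 619 CPM. Mmp9 (gelatinase B), which took part in the rule for mature neutrophils, had 2100, 2074 and 2000 CPM, against 932, 848 and 748 CPM, and without other lineages aged Mmp9 was 2393 CPM in members and 1539 CPM in mature neutrophils, no longer 2-fold apart. Cd14, a co-receptor for bacterial lipopolysaccharide, was lower in the members of the aged+AA and aged libraries, with 114 and 185 CPM, against 794 and 491 CPM in mature neutrophils, but not in the young members, with 1139 CPM against 979.6 CPM. Without other lineages, which leaves 4 young members, young Cd14 was 775.9 CPM in members and 1131 CPM in mature neutrophils, the order of the other libraries.

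The subunits of the phagocyte NADPH oxidase, which makes superoxide, were at or above the mature level in the aged library, with 2 of 7 genes 2-fold higher and none lower. Cybb, its catalytic subunit, had 1059, 1153 and 1848 CPM in members, against 106, 558 and 258 CPM in mature neutrophils. Without other lineages, aged Cybb was 1275 CPM in members and 48.3 CPM in mature neutrophils. Ncf1, a cytosolic subunit, had 665, 591 and 734 CPM in members, against 265, 258 and 284 CPM in mature neutrophils. Of the 7 subunit genes in the aged+AA library, 3 were 2-fold higher in members and 1 was 2-fold lower. Among all genes of that library 6.1% were higher and 32.9% lower.

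Cebpe, the gene of C/EBP epsilon, was the transcription factor gene of largest ratio. It had 18, 159 and 2 UMIs in aged+AA, aged and young members, or 158, 198 and 50.6 CPM, against 4.73, 8.67 and 0 CPM in mature neutrophils, with an aged ratio of 22.8 (16.1 to 32.9). Klf5 followed with an aged ratio of 5.24, and these were the 2 of 20 measured factors that were 2-fold higher, while 10 were lower. Cebpb, which acts in mature and stimulated myeloid cells, had 901, 1056 and 2557 CPM in members, against 4203, 3140 and 6496 CPM in mature neutrophils, an aged ratio of 0.336 (0.314 to 0.360). Cebpa, which acts earlier, had 0, 12 and 1 UMIs in members, and Gfi1 had 1, 0 and 1. Of 12 cell cycle genes measured in the aged library, 1 was 2-fold higher in members, Stmn1 with 14 UMIs, and 7 were lower, with a median of -1.13, or -0.45 relative. The sum over the list of 24 genes was 1799, 1315, 1638 and 2418 CPM in 4 sets of aged members of rising granule share (described below), against 1866 CPM in aged mature neutrophils. Hmgb2, a chromatin protein that resting cells also express, made up much of it, with 1234, 1198 and 1823 CPM in members, against 1167, 988.4 and 1572 CPM in mature neutrophils. Mki67, a marker of cycling cells, had 0, 3 and 2 UMIs in aged+AA, aged and young members and Top2a 0, 3 and 0, while Cdk1, Ccnb1, Cenpf, Rrm2, Cdc20 and Nusap1 had 0 UMIs in all members.

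Genes of mature and stimulated neutrophils were low in members. Of 21 inflammatory genes measured in the aged library, 19 were 2-fold lower in immature neutrophils and none higher, with a median of -2.01, or -1.33 relative to the median gene. All 22 immediate early genes were 2-fold lower, with a median of -2.08, or -1.40 relative, and 14 of 22 with median-of-ratios scaling. Il1b (interleukin-1 beta) had 43.7, 242 and 127 CPM in members, against 10582, 5735 and 11523 CPM in mature neutrophils. The aged ratio was 0.0423 (0.0365 to 0.0486), and 32.3% of the aged members' Il1b UMIs came from 1 cell. Cxcl2, a chemokine that draws neutrophils, had 158, 533 and 1291 CPM in members, against 9888, 5115 and 18921 CPM in mature neutrophils. Ptgs2 (cyclooxygenase-2) had 0, 12.4 and 0 CPM in members, against 759, 394 and 876 CPM in mature neutrophils. Junb, an immediate early factor, had 761, 436 and 759.5 CPM, against 3398, 1984 and 4125 CPM. Each library showed the same order for these genes. Ms4a6d, Stfa1 and Saa3 had 0 UMIs in aged members. With 0 taken as 3 counts they were 14.2-, 12.6- and 10.5-fold lower than in aged mature neutrophils. The exact intervals of their ratios reached 0.0873, 0.0984 and 0.118. Ms4a6d is also a monocyte gene, and without other lineages Ms4a6d and Saa3 had 5 and 3 UMIs left in aged mature neutrophils, which gives no bound. Stfa1, at 98.7 CPM in those mature cells, had 46 UMIs in the aged+AA members, all in 1 cell.

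Receptors for neutrophil growth and migration were present at lower levels. Csf3r, the receptor for granulocyte colony-stimulating factor, had 419.9, 291 and 152 CPM in members, against 1632, 1104 and 1727 CPM in mature neutrophils. Cxcr2, which lets neutrophils leave the marrow, had 166, 268 and 202 CPM, against 554, 426 and 335 CPM, and Cxcr4, which holds them there, had 210.0, 163 and 25.3 CPM, against 854, 513 and 541 CPM. These 3 genes were lower in members in every library, the first 2 being part of the rule for mature neutrophils. Without other lineages young Cxcr2 had the opposite order, with 202.4 CPM in members (6 UMIs) and 176.6 CPM in mature neutrophils (5 UMIs). Retnlg, a resistin-like secreted protein listed with mature genes, ran the other way, with 17121, 17917 and 15721 CPM in members, against 4885, 8014 and 4279 CPM in mature neutrophils. Without other lineages aged Retnlg was 19838 CPM in members and 14649 CPM in mature neutrophils, no longer 2-fold apart. Ly6g, the surface marker of mouse neutrophils, had 464, 565 and 962 CPM in members, against 23.6, 54.0 and 51.6 CPM in mature neutrophils. Syne1, a nuclear envelope linker protein, had 341, 449.8 and 506 CPM, against 33.1, 36.4 and 25.8 CPM.

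Leaving out other lineages moved further genes by over 1.5 times with their direction kept. In the aged library Lcn2 was then 15416 CPM in immature and 1641 CPM in mature neutrophils, Wfdc21 7083 and 1674 CPM, Ifitm6 2370 and 160.4 CPM, Serpinb1a 453 and 9.77 CPM, and Ly6g 685 and 98.7 CPM. Il1b was 167 CPM in immature and 10239 CPM in mature neutrophils, Cxcl2 582 and 8680 CPM, Srgn 742 and 5069 CPM, Junb 411 and 2863 CPM, Csf3r 308 and 1928 CPM, Cxcr2 302 and 755 CPM, and Cxcr4 135 and 729 CPM. These low genes were further apart between the classes than with all barcodes. Thinning each barcode to 1000 UMIs gave Anxa1 a log2 ratio of 1.61 and Ncf1 0.60, the second below 2-fold.

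The 100 aged members were not uniform. Ordered by the share of their UMIs from Ngp, Camp and Ltf and divided into 4 sets of 25, they ranged through 0.0285 to 1.21%, 1.25 to 3.46%, 3.48 to 7.83% and 8.01 to 13.5%. This order uses the rule genes, and the values along it are a description. Lcn2 had 5774, 11778, 15516 and 19532 CPM in the sets of lowest to highest granule share, a last over first ratio of 3.38 (3.18 to 3.60). Cebpe had 21.8, 160.1, 252 and 359 CPM. Chil3 had 323, 547, 2473 and 4412 CPM, and Cybb 511, 707, 1265 and 2050 CPM. These genes were higher in each set than in the one before it. Ly6g had 245, 407, 583 and 1006 CPM with all barcodes, and Anxa1 and Serpinb1a had the same order, as did Cd177 except that it was level between the second and the third set (827 and 840.0 CPM).

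A second group of genes ran against the granule share. Retnlg had 24590, 29928, 14578 and 5578 CPM along the 4 sets, Csf3r had 449.9, 374, 219 and 132 CPM, Cxcr2 had 371, 340, 219 and 156 CPM, and Cebpb had 1869, 1288, 686 and 387 CPM. Junb had 847, 514, 252 and 123 CPM. Il1b had 769 CPM in the set of lowest share and 46.7, 51.3 and 4.7 CPM in the others. Retnlg was highest in the second set, and the sets of lowest granule share were nearer to the mature neutrophils in Csf3r and Cebpb, which had 1104 and 3140 CPM there. Mmp8 and Mmp9 were highest in the second set with all barcodes, Mmp8 with 1581, 2542, 2198 and 1393 CPM and Mmp9 with 1786, 2856, 2128 and 1776 CPM.

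The set of lowest granule share differed in other ways that move with these values. It held 6 of the 11 B-marker members and the 1 doublet, its ribosomal share was 9.44%, against 2.93%, 3.84% and 3.14% in the others, and the MHC class II chaperone Cd74 had 2529 CPM there, against 180, 602 and 37.8 CPM. Haemoglobin took 7.05%, 7.73%, 7.35% and 0.325% of UMIs along the sets. With the other-lineage barcodes left out and the remaining 85 divided again, 14 of 24 genes examined moved and none turned direction. Lcn2 then had 10228, 11551, 17214 and 20070 CPM, a last over first ratio of 1.96, and Chil3 a ratio of 25.7. Ly6g had 452.4, 362.9, 758.4 and 1007 CPM, so its first sets no longer followed the order, and its last over first ratio was 2.23 in place of 4.11. That of Anxa1 was 2.49 in place of 3.74, and that of Serpinb1a 2.28 in place of 3.799. Mmp8 had 2472, 2540, 2546 and 1291 CPM, level over the first 3 sets, and Mmp9 had 2844, 3073, 2294 and 1696 CPM. Retnlg had 41098, 26738, 13459 and 6214 CPM, Cxcr2 606, 255, 271 and 159 CPM, and Cd74 48.5, 46.3, 24.7 and 38.3 CPM. The 15 aged+AA members, in sets of 4, 4, 4 and 3, gave Lcn2 at 7811, 12534, 12933 and 17284 CPM. Chil3 was at 523, 1975, 2264 and 3439 CPM there, and Retnlg at 23466, 22309, 11568 and 9547 CPM. Not every gene kept the aged order in these few cells. Ly6g had 490, 409, 527 and 407 CPM, and Cd177 had 654, 1124, 806 and 1176 CPM. Cebpe had 131, 136, 186 and 181 CPM, on 4 to 6 UMIs per set. Mmp9 was highest in the last set, with 1765, 1975, 2078 and 2760 CPM.

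**Figure D4:**
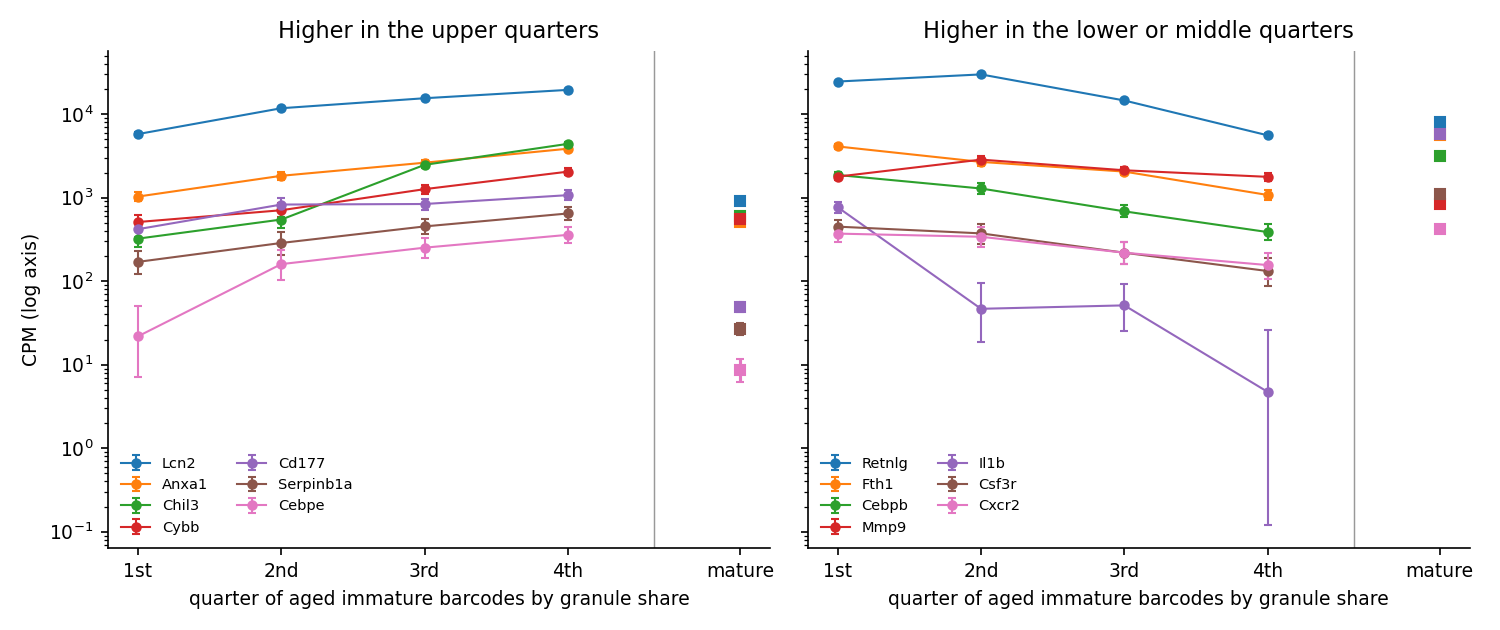
Levels in CPM on a log axis in 4 sets of 25 aged immature neutrophils ordered by granule share, with exact 95% Poisson bars, and in aged mature neutrophils as squares right of the grey line. The left panel has genes that were higher with more granule mRNA (Lcn2, Anxa1, Chil3, Cybb, Cd177, Serpinb1a and Cebpe). The right panel has Retnlg, Fth1, Cebpb, Mmp9, Il1b, Csf3r and Cxcr2. Mmp9 is level between the first and the last set, and the other genes of that panel are lower in the last set.

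Between aged+AA and aged members the granule genes were close. Among 3563 genes with 20 or more UMIs over the 115 cells, 237 (6.65%) were 2-fold or more higher in aged+AA members and 316 (8.87%) were lower, with a median of 0.12 on the log2 scale. None of 17 specific granule genes, 14 gelatinase granule and secretory vesicle genes or 7 NADPH oxidase genes passed 2-fold in either direction, and the specific granule median was 0.22, or 0.10 relative to the median gene. Without other lineages, 1 specific granule gene was higher and 1 lower. Lcn2 had 12301 CPM in aged+AA members and 13105 CPM in aged members, a ratio of 0.939 (0.887 to 0.992). Cd177 had a ratio of 1.18 (0.950 to 1.45), Mmp8 1.34 (1.18 to 1.52), Lyz2 0.781 (0.721 to 0.844) and Cebpe 0.797 (0.461 to 1.30). Of the genes that chose the cells, Ngp had a ratio of 1.17 (1.13 to 1.22), Camp 1.02 (0.975 to 1.07) and Ltf 1.31 (1.21 to 1.42).

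Interferon-response genes had the lowest median among the lists of neutrophil function. Of 23 measured, 11 were 2-fold lower in aged+AA members and none higher, against 8.87% lower among all genes, and their median was -0.98, or -1.10 relative to the median gene. Without other lineages it was 8 of 19 lower, with a median of -0.54, or -0.71 relative, and the inflammatory list was then lower, at -0.66. Ifi27l2a, an interferon-induced protein of mitochondria, had 551 CPM in aged+AA members (63 UMIs in 7 of 15 cells, 66.7% of them in 1 cell) and 1526 CPM in aged members (1228 UMIs in 81 of 100), a ratio of 0.361 (0.276 to 0.466). Its ratio in mature neutrophils was 0.509 (0.477 to 0.543), with 1569 CPM in aged+AA and 3079 CPM in aged cells. Ifitm1, a restriction factor for viral entry, had 78.7 CPM in aged+AA members and 263 CPM in aged members, a ratio of 0.299 (0.135 to 0.578), beside 1.12 (1.05 to 1.20) in mature neutrophils. Without other lineages it had 114 and 212 CPM in aged+AA and aged members and 2098 and 2513 CPM in their mature neutrophils. Both classes were then lower in the aged+AA library. Along the 4 aged sets of rising granule share Ifitm1 had 603, 367, 51.3 and 37.8 CPM. The median granule share was 5.75% in aged+AA and 3.47% in aged members, and its part in the ratio was not tested. Ifitm2 had 489.9 and 717 CPM in aged+AA and aged members, but 608 and 669 CPM without other lineages and a log2 ratio of 0.38 when thinned, and Ifitm3 had 1837 and 2365 CPM. Bst2 (tetherin) had 0 UMIs in aged+AA members and 43 in aged members, 2.04-fold lower if 0 is taken as 3 counts. It was at 8.36 CPM in aged members without other lineages. In mature neutrophils 8 of 33 interferon genes were 2-fold lower in aged+AA cells and none higher, against 12.9% of all 8910 genes lower and 5.39% higher.

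**Figure D5:**
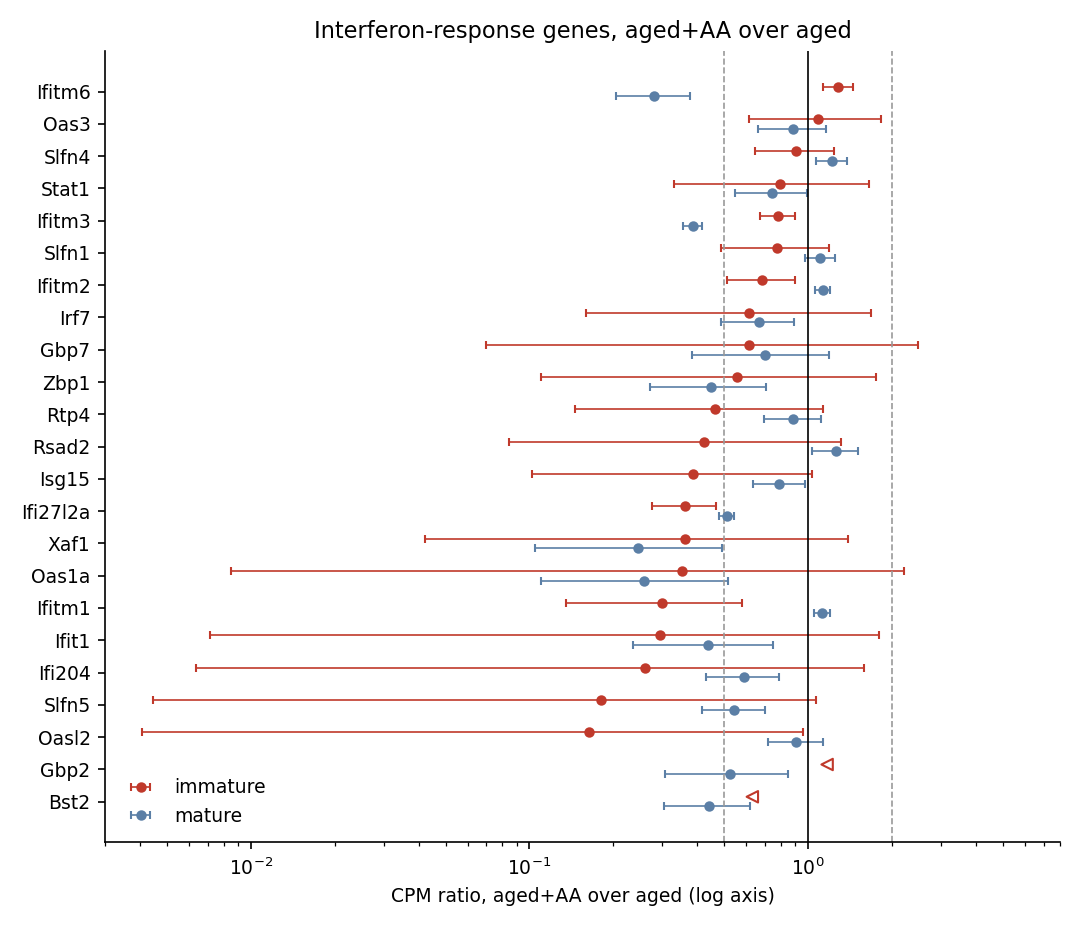
Ratios of aged+AA over aged CPM for 23 interferon-response genes on a log axis, in immature (red) and mature (blue) neutrophils, with exact 95% intervals and dashed lines at 0.5 and 2. Open triangles are genes with 0 UMIs in aged+AA cells, drawn at the upper bound of the interval. Most immature ratios lie left of 1, and many of their intervals are wide because 15 cells stand on the aged+AA side.

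Stimulation genes were not all in 1 direction. Il1b had 43.7 CPM in aged+AA members (5 UMIs) and 242 CPM in aged members, a ratio of 0.180 (0.0580 to 0.429), with 50.7 and 167 CPM without other lineages, while its ratio in mature neutrophils was 1.84 (log2 0.46 when thinned to 1000 UMIs). Cxcl2 had 158 and 533 CPM in aged+AA and aged members, a ratio of 0.295 (0.173 to 0.473), against 1.93 in mature neutrophils. Without other lineages Cxcl2 had 228 and 582 CPM in aged+AA and aged members. It had 13089 and 8680 CPM in their mature neutrophils, closer together than with all barcodes. Egr1, an immediate early factor, had 0 UMIs in aged+AA members and 146 UMIs in 34 aged members (181 CPM). It was 6.91-fold lower if 0 is taken as 3 counts, and the exact interval of its ratio reached 0.180. The ratio of Egr1 in mature neutrophils was 1.38, with 1898 and 1632 CPM in aged+AA and aged mature neutrophils without other lineages. Junb was higher in aged+AA members, with 761 CPM against 436 CPM, a ratio of 1.75 (1.36 to 2.21) beside 1.71 in mature neutrophils. Over the lists, 2 of 16 inflammatory genes were 2-fold higher and 5 lower, and 2 of 17 immediate early genes were higher and 2 lower. Among all 3563 genes 6.65% were higher and 8.87% lower, and lists this short allow no reading of small differences from those shares. That the ratios of Il1b, Cxcl2 and Egr1 differed between immature and mature cells was not tested. The median granule share was 5.75% in aged+AA members and 3.47% in aged members. Il1b and Cxcl2 were highest in the aged set of lowest granule share, Cxcl2 with 1236 CPM there and 9.45 CPM in the last set. Junb was also highest in that set, yet was higher in aged+AA members. What the unlike granule shares contributed to these ratios was not tested.

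Other genes that the rule for naming picked included some that were tied to few cells or to other lineages. The highest ratio was that of Lars2, a mitochondrial leucyl-tRNA synthetase, with 586 CPM in aged+AA members and 176 CPM in aged members, a ratio of 3.32 (2.45 to 4.47), beside 2.16 (1.88 to 2.47) in mature neutrophils. After thinning each barcode to 1000 UMIs, its log2 ratio in members was 0.61. Cd74 had 2187 CPM in aged+AA members and 923 CPM in aged members, but 86% of the aged+AA UMIs were in 1 cell, and without other lineages the levels were 38 and 38.4 CPM. H2-Eb1, another MHC class II gene, had a ratio of 1.79, but 12.7 and 28.4 CPM in aged+AA and aged members without other lineages. The glycolytic enzyme gene Pkm had 849 and 511 CPM in aged+AA and aged members, a ratio of 1.66 (1.32 to 2.08), and the factor gene Klf2 769.9 and 471 CPM, a ratio of 1.64 (1.28 to 2.07). Of 16 glycolysis genes 2 were 2-fold higher, Hk2 at 2.75 and Tpi1 at 2.73, and none lower, against 6.65% higher and 8.87% lower among all genes. At the other end, S100a4 had a ratio of 0.0629 (0.00158 to 0.357), Wfdc17 0.0634 (0.00764 to 0.232), and Ms4a6c and Ccl4 had 0 UMIs in aged+AA members. Aged S100a4 was at 139 CPM in members, but without other lineages it was 12.68 CPM in aged+AA members (1 UMI) and 6.69 CPM in aged members, 43.7% of the aged Wfdc17 UMIs and 73.8% of the aged Ccl4 UMIs were in 1 cell, and the monocyte gene Ms4a6c was at 3.34 CPM without other lineages. Of 7 measured monocyte markers 5 were 2-fold lower in aged+AA members, and 5 of 7 B cell markers were higher.

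Genes tied to the study's agent were few. Myh9, the heavy chain of non-muscle myosin named in the series title, had 455, 533 and 405 CPM in aged+AA, aged and young members, and its aged+AA over aged ratio was 0.854 (0.627 to 1.14). Slc2a3, a glucose transporter that also carries dehydroascorbate, had 262, 241 and 76.0 CPM, a ratio of 1.09. The ascorbate transporter genes had 0, 2 and 0 UMIs (Slc23a1) and 0, 1 and 0 UMIs (Slc23a2), too few to compare at this depth.

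The 5 young members are given as counts, with no ratio. Their granule UMIs were 1169, 637, 521, 122 and 723 of 9858, 8251, 7444, 7309 and 6639 UMIs in all, and their Lcn2 UMIs ran between 71 and 174. Nfkbia, an inhibitor of NF-kappa B that is induced by it, had 81 UMIs in the 5 cells, or 2051 CPM, against 324 and 294 CPM in aged+AA and aged members, and young mature neutrophils had 9590 CPM. Cd14 had 45 UMIs and Cxcl2 51 UMIs in the young members. Ifi27l2a had 1 UMI, and Ifitm1 and Cd74 had 0. Without the 1 young member that carried monocyte markers, 4 were left.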

How the data were processed

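Per the file headers the deposited matrices hold UMI counts per gene and barcode (unit counts, unfiltered barcodes), written by the authors with Cell Ranger 4. The submitters' processing notes name mm10 and Seurat 3.1.0, and no other step is given in the sources used here. Replicates do not exist, with 1 library per group, so no test was run and "2-fold" marks a size only.

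Barcodes were filtered and classed from raw counts. Within a library, the counts of a class were added up and scaled to its summed UMIs (CPM). Log2 ratios add 0.5 to each count, and genes with 20 or more summed UMIs entered each comparison. Intervals of CPM ratios are exact conditional binomial intervals at 95%. Counts of 0 were set against a limit of 3 counts. Of 381 listed genes 377 were found. The members and the gene lists were chosen with earlier results of these data known. Genes were named by a rule: 50 or more UMIs in the higher class, ranked by the interval bound nearest 1, the first 10 each way for immature over mature and the first 6 each way for aged+AA over aged, plus the granule and transcription factor lists and the leading genes of each other list. Other genes in the text were chosen after their values were seen, and 1 gene picked by the rule is not reported here.

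Doublets were called with Scrublet in scanpy 1.11.5 but kept in the main values, and it called 4.12%, 4.28% and 4.50% of passing barcodes of the aged+AA, aged and young libraries. Free RNA was measured in barcodes ranked 45001 to 90000. Alternatives changed the UMI, mitochondrial and granule limits, thinning to 1000 UMIs, doublets, free RNA, scaling, count minimum and B-marker barcodes. The removal of monocyte-marker barcodes, of all other-lineage barcodes and of the deepest member was added after seeing the data. The median-of-ratios scaling uses 1 size factor per summed class. Python 3.11.15, numpy 2.4.6, scipy 1.17.1 and pandas 2.3.3 were used. The ratios and their intervals were tried on Poisson counts simulated from the summed class profiles. These counts held no variation between cells, so the trial could not check what such variation does to the intervals.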

Additional observations from a re-analysis of the deposited data

Results flagged for a closer look

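Barcodes below the minimum of 500 UMIs were not used above, and some of them met the granule and calprotectin counts of the rule. They numbered 1 in the aged+AA library, 4 in the aged library and 2 in the young library. They were flagged as a signal in barcodes that entered no comparison, and no control library without neutrophils exists to set them against.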

How the results depend on the processing

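No paired analysis was possible because each group held 1 library, and leaving out a replicate was not possible for the same reason. The aged+AA over aged and aged over young ratios of the immature share, among passing barcodes and among neutrophils, stayed within their own 95% intervals under every alternative run for them, with the aged+AA over aged share between 0.0992 and 0.179. Shares of passing barcodes moved where the denominator lost cells: without B-marker barcodes they were 0.223% in the aged+AA library and 1.74% in the aged library, and without monocyte-marker barcodes 1.43% in the aged library. Genes higher and lower in immature over mature aged neutrophils numbered 1017 and 1216 with median-of-ratios scaling, 673 and 1717 with CPM without rule, ribosomal and mitochondrial genes, and 148 and 1557 at 100 or more counts. Higher genes numbered 1140 at 1 or more counts, and lower genes 1394 after thinning to 1000 UMIs, 1637 without monocyte-marker barcodes and 1317 without all other-lineage barcodes. For aged+AA over aged members the counts were 3372 and 984 at 1 or more counts, 12 and 22 at 100 or more counts and 42 and 48 after thinning, and 177 lower without all other-lineage barcodes. The share of called genes that were higher was then 77.4% at 1 or more counts and 56.7% without other lineages, against 42.9%. For mature aged+AA over aged cells that share was 69.4% without other lineages, against 29.4% with all barcodes.

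Log2 ratios of 2-fold or more that turned direction were those of Cebpa in immature over mature aged cells (0.70 thinned, 0.039 without monocyte-marker barcodes) and, for aged+AA over aged members, of Cd74 (-2.46 without B-marker and -3.67 without monocyte-marker barcodes), Ccl6 (0.17 thinned) and Nr4a1 (0.44 without monocyte-marker, 0.60 without all other-lineage barcodes). In mature aged+AA over aged cells the 2-fold ratios that turned were Cd74 (-0.93) and H2-Eb1 (-0.51) without B-marker barcodes and S100a4 (0.30) without all other-lineage barcodes. Ratios under 2-fold that turned are given beside the gene for Lrg1, Hp, Lyz2, Ifitm1, Ifitm2 and H2-Eb1. The cause was not tested. Depth limits every value that rests on the 15 aged+AA or 5 young members.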
